A study of Mus musculus with 35 samples.

Results

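The 10 genes described here are acute-phase and metallothionein genes of the mouse liver: Saa1, Saa2, Saa3, Orm1, Orm2, Hp, Lcn2, Apcs, Mt1 and Mt2. They were taken as a fixed list of names from a table of 55413 genes, and all 10 passed a filter on low counts that kept 15297 genes. RNA was read from the ends of polyadenylated transcripts in the livers of 21 C57Bl6 mice. The Smyd3-ASO group (6 mice) and the control-ASO group (6 mice) were given diethylnitrosamine (DEN), which causes liver tumours, at 25 mg/kg on day 14 of life. An antisense oligonucleotide (ASO, a synthetic nucleic acid that binds its target RNA by base pairing and lowers its level) was injected 2 times a week from day 133, at 50 mg/kg, and the livers were taken on day 260. It was directed at Smyd3, a lysine methyltransferase gene, in the first of these groups, and was a control sequence in the other. The P133 group (4 mice) received the same DEN dose and no ASO and was harvested on day 133. The untreated group (5 mice) received neither agent and was harvested on day 260. All DEN samples are labelled as tumours and the untreated samples as normal liver, so treatment and tissue label go together. Age and DEN cannot be told apart in P133 against untreated mice, nor age and ASO in the ASO groups against P133 mice. In the ASO groups against untreated mice, DEN and ASO cannot be told apart.

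The acute-phase response is the change in blood proteins made by the liver during infection, injury or inflammation. Interleukin-6, acting through gp130, JAK kinases and STAT3, and interleukin-1, acting through NF-kappaB, raise the transcription of these genes in hepatocytes, with C/EBP proteins as partners. Metallothioneins are small cysteine-rich proteins that bind zinc and copper. Their genes answer to zinc through the factor MTF1, to glucocorticoids and, in the liver, to interleukin-6. In bulk liver RNA, fewer cells of a type and less RNA per cell cannot be told apart.

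Saa1 and Saa2, which encode the serum amyloid A apolipoproteins of high-density lipoprotein, lie near each other on chromosome 7 of mm10 at 46740497 to 46742980 on the minus strand and at 46751790 to 46754313 on the plus strand. Saa3, an amyloid A gene also used outside hepatocytes, lies beside them at 46711998 to 46715700 on the minus strand. Mt2 and Mt1, the metallothioneins expressed in liver, are neighbours on the plus strand of chromosome 8, at 94172664 to 94173568 and 94179082 to 94180327. The promoters of Saa1, Saa2, Mt1 and Mt2 are printed because, among the members, the profile of Saa2 lay closest to that of Saa1 and the profile of Mt2 closest to that of Mt1. Each line holds the 200 bases before the RefSeq transcription start (GRCm38.p6), 5′ to 3′ on the gene's strand. Capitals in the Saa promoters mark matches to the C/EBP motif TTNNGNAA, and capitals in the Mt promoters mark matches to the metal response element core, TGCGCNC or TGCACNC, each searched on both strands.
Saa1, chr7:46742981-46743180, minus strand: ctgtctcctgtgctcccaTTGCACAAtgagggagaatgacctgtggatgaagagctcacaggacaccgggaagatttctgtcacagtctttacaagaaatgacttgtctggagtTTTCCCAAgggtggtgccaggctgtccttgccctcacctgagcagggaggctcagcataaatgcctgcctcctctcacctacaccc
Saa2, chr7:46751633-46751832, plus strand: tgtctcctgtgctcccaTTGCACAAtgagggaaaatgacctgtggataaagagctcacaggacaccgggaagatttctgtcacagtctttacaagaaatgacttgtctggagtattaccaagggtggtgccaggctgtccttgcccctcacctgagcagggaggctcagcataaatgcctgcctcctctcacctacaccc
Mt1, chr8:94178889-94179088, plus strand: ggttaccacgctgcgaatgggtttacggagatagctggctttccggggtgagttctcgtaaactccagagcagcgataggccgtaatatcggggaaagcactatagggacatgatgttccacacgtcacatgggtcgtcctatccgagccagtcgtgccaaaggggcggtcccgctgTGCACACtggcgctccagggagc
Mt2, chr8:94172418-94172617, plus strand: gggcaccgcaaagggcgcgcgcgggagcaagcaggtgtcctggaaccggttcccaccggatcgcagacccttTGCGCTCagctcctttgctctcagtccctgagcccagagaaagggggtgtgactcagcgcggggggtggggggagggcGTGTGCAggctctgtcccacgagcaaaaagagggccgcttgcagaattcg

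In the 250 bases before the start, of which the printed lines are the nearer part, the Saa1 and Saa2 promoters were identical at 238 of 250 bases, with 11 mismatches and 2 gaps. The Saa1 window holds 2 C/EBP matches and the Saa2 window 1, where the distal match TTGCACAA is shared. The Mt1 window holds 1 metal response core and the Mt2 window 3, while the Mt1 and Mt2 windows were identical at 58.4% of bases and Saa1 and Saa3 windows at 61.6%. Each window ends at the RefSeq start, which differs from the gene start given above for Saa2, Mt1 and Mt2. Matches past that start were not counted, so the numbers describe these windows and not whole promoters. Among 32851 promoter windows of the same length, 36.8% hold at least 1 C/EBP match and 21.4% at least 1 metal response core, so single matches are common. The RefSeq promoter table gave 8 of the 10 members, without Orm1 and Hp. In the other windows the C/EBP motif was found 4 times for Saa3, 2 times for Orm2 and 1 time each for Lcn2 and Mt2, and the STAT motif TTCNNNGAA 1 time for Apcs, against 7.02% of all windows for the STAT motif. The kappaB motif was in none of the 8 windows and in 7.25% of all windows. A match is a run of letters and not a bound site, and a missing match says nothing about a factor.

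Total counts per mouse ran from 6358080 to 20258619 in Smyd3-ASO mice, 6789715 to 13805881 in control-ASO mice, 4556484 to 6447397 in P133 mice and 10186780 to 13116012 in untreated mice. Levels are CPM, each gene's count relative to the library's total on a fixed common scale, adjusted by TMM over all 21 mice, and the members had between 28 and 343331 counts in every mouse. Smyd3 was at 0 to 0.758 CPM in Smyd3-ASO mice, against 3.11 to 4.64 CPM in control-ASO mice, 2.66 to 5.47 CPM in P133 mice and 2.36 to 5.08 CPM in untreated mice. Summed hepatocyte markers (8 genes) ran from 22715 to 38929 CPM in Smyd3-ASO mice, 51984 to 70575 CPM in control-ASO mice, 43258 to 45245 CPM in P133 mice and 56029.6 to 108574 CPM in untreated mice. Reads of near-identical transcripts limit some members: in the last 300 bases, 58.6% of the 50-base windows of Orm1 and 65.3% of those of Orm2 occur in another gene, mostly their neighbours Orm1, Orm2 and Orm3. For Saa1 and Saa2 the shares were 9.6% and 9.4%, all with each other, and for Saa3 11.2%. The split of counts within the Orm family is therefore uncertain.

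Single mice stood apart in these genes before any comparison of groups. Untreated mouse 5 had the highest level of its group in 10 of 10 members, although it is labelled as normal liver without treatment. In the Smyd3-ASO group, mice 3 and 4 held the 2 highest levels in 10 of 10 members, with mouse 3 highest in 9 and mouse 4 highest in Hp. Over all 15297 genes, untreated mouse 5 was highest of its group in 24.7% and mice 3 and 4 were the 2 highest of theirs in 13.7%. Both orders held in 4.65% of all genes. These mice were picked out by their levels of these genes, so the results below are given with and without them as a description.

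The 10 genes together took 4.83% and 3.76% of all counts in Smyd3-ASO mice 3 and 4, and 0.345% to 0.871% in the other 4 Smyd3-ASO mice. In control-ASO mice they took 0.274% to 0.913%, in P133 mice 0.251% to 0.385% and in untreated mice 1 to 4 0.188% to 0.365%. In untreated mouse 5 they took 8.81%, of which Saa1 and Saa2 made up 4.74% of all counts, Hp 2.73% and the metallothioneins 0.460%. The metallothionein share was larger in Smyd3-ASO mice 3 and 4, at 1.12% and 0.712%, than in untreated mouse 5, while their Saa1 and Saa2 share was smaller, at 1.62% and 1.08%.

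**Figure D1:**
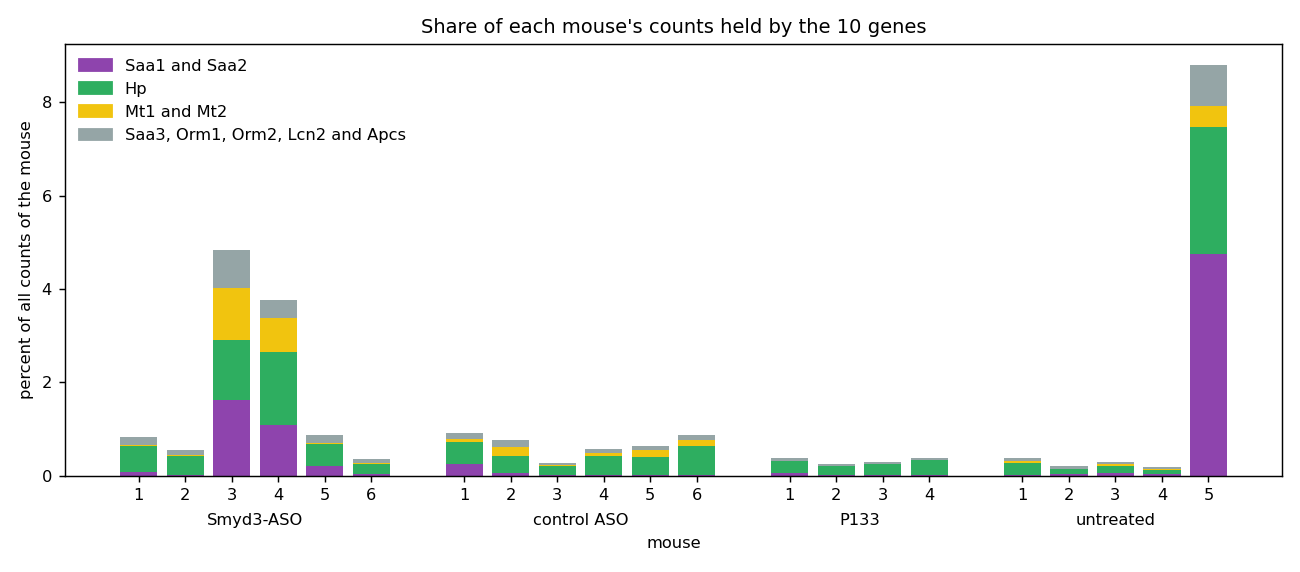
Share of all counts of each mouse taken by the 10 acute-phase and metallothionein genes, as stacked bars in percent, with Smyd3-ASO, control-ASO, P133 and untreated mice from left to right. Untreated mouse 5 at 8.81% and Smyd3-ASO mice 3 and 4 at 4.83% and 3.76% stand above all others, which lie under 1%.

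Saa1 had a lowest, median and highest level of 77.4, 738 and 6560.4 CPM in Smyd3-ASO mice and 22.4, 74.5 and 1397 CPM in control-ASO mice. It was at 322, 87.7, 114 and 60.8 CPM in P133 mice 1 to 4 and at 124, 373, 697, 269.98 and 30551 CPM in untreated mice 1 to 5. Smyd3-ASO mice 3, 4 and 5, at 6560.4, 4625 and 1152 CPM, control-ASO mouse 1 and untreated mouse 5 were the high mice, and all 4 groups overlapped.

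Saa2 had a lowest, median and highest level of 45.2, 522 and 8752 CPM in Smyd3-ASO mice and 6.87, 25.8 and 866 CPM in control-ASO mice. Its level was 149.9, 24.6, 33.5 and 25.8 CPM in P133 mice and 26.1, 50.3, 181, 52.1 and 45918 CPM in untreated mice. The same mice were high as for Saa1. In 3 of them the balance of the pair also differed: the ratio of Saa2 to Saa1 counts was 1.33 and 1.09 in Smyd3-ASO mice 3 and 4 and 1.50 in untreated mouse 5, against 0.135 to 0.745 in the other 18 mice.

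Saa3 was highest in Smyd3-ASO mouse 3, at 1433 CPM, followed by untreated mouse 5 at 131 CPM and Smyd3-ASO mouse 4 at 72.4 CPM. The lowest and median levels were 6.37 and 19.0 CPM in Smyd3-ASO mice and 3.11 and 5.41 CPM in control-ASO mice, whose highest was 25.0 CPM in mouse 1. P133 mice had 12.0, 13.2, 15.7 and 13.6 CPM and untreated mice 1 to 4 had 13.0, 15.2, 8.57 and 9.14 CPM. Saa1 and Saa2 were highest in untreated mouse 5, and Saa3 in Smyd3-ASO mouse 3.

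Orm1 and Orm2 (chromosome 4, 63344560 to 63348163 and 63362449 to 63365878, plus strand) encode the orosomucoids, plasma glycoproteins that carry drugs and lipids. Orm1 had a lowest, median and highest level of 453, 1056 and 3170.1 CPM in Smyd3-ASO mice and 97.7, 189 and 621 CPM in control-ASO mice. P133 mice were at 459, 321, 290.1 and 276 CPM and untreated mice at 371, 348, 532, 331 and 3669 CPM. Control-ASO mice 3 to 6, at 190.2, 177, 97.7 and 187 CPM, lay below every mouse of the other 3 groups.

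Orm2 had a lowest, median and highest level of 97.2, 216 and 444 CPM in Smyd3-ASO mice and 4.94, 8.11 and 87.7 CPM in control-ASO mice, and these groups did not overlap. It was the 1 member of 10 without overlap between these groups, which 11.1% of all genes also lacked. The level was 123, 47.5, 29.7 and 47.1 CPM in P133 mice and 70.6, 200.1, 82.0, 57.5 and 3895 CPM in untreated mice. Control-ASO mice 3 to 6 were again the lowest of all, at 8.44, 7.23, 4.94 and 7.79 CPM. The Orm2 to Orm1 count ratio was 0.140 to 0.268 in Smyd3-ASO mice, 0.0409 to 0.0505 in control-ASO mice 3 to 6, 0.141 and 0.112 in control-ASO mice 1 and 2, 0.102 to 0.269 in P133 mice, 0.154 to 0.574 in untreated mice 1 to 4 and 1.06 in untreated mouse 5. Control-ASO mice 1 and 2 thus lay within the range of the P133 mice, control-ASO mice 3 to 6 lay below all other mice, and the shared 3′ ends apply to this ratio.

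Hp (chromosome 8, 109575128 to 109579172, minus strand) encodes haptoglobin, which binds free haemoglobin. Its lowest, median and highest level was 1814, 4244 and 14178 CPM in Smyd3-ASO mice and 1714, 3387 and 4828 CPM in control-ASO mice. In P133 mice Hp was at 2715, 1929.7, 2345 and 3237 CPM and in untreated mice at 3262, 1819.5, 2837, 1557 and 43957 CPM. Outside untreated mouse 5 and Smyd3-ASO mice 3 and 4, the 4 groups overlapped.

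Apcs (chromosome 1, 172893961 to 172895041, minus strand) encodes serum amyloid P, a pentraxin and a main acute-phase protein of the mouse. Apcs had a lowest, median and highest level of 22.8, 82.6 and 256 CPM in Smyd3-ASO mice and 63.1, 315 and 521 CPM in control-ASO mice. P133 mice had 44.0, 31.9, 29.7 and 33.5 CPM and untreated mice 323, 297, 175, 363 and 3371 CPM. Every P133 mouse lay below every control-ASO and every untreated mouse. Of all genes, 21.3% did not overlap between P133 and control-ASO mice, and 27.1% between P133 and untreated mice. Smyd3-ASO mice 3 and 4, at 256 and 247 CPM, were the highest of their group, lay within the control-ASO range and lay above every P133 mouse.

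Lcn2 (chromosome 2, 32384633 to 32388252, minus strand) encodes lipocalin 2, which binds bacterial siderophores and is made by hepatocytes and neutrophils. Lcn2 had a lowest, median and highest level of 59.5, 94.0 and 2269 CPM in Smyd3-ASO mice and 61.9, 159 and 341 CPM in control-ASO mice. It was at 15.2, 9.16, 6.21 and 8.06 CPM in P133 mice and 11.1, 13.2, 15.4, 10.7 and 3235 CPM in untreated mice. All 12 ASO mice lay above all P133 mice and above untreated mice 1 to 4, and untreated mouse 5 lay above all of them. Smyd3-ASO and P133 mice did not overlap in 19.3% of all genes, and control-ASO and P133 mice in 21.3%.

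Mt1 had a lowest, median and highest level of 52.8, 122 and 4879 CPM in Smyd3-ASO mice and 160.3, 464 and 896 CPM in control-ASO mice. P133 mice were at 13.3, 20.2, 17.5 and 61.8 CPM and untreated mice at 339, 75.3, 487, 108 and 4411 CPM. Smyd3-ASO mice 3 and 4, at 4879 and 2946 CPM, lay above every control-ASO mouse, and Smyd3-ASO mice 1, 2, 5 and 6, at 136, 109, 72.9 and 52.8 CPM, lay below every control-ASO mouse.

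Mt2 showed a similar pattern, with a lowest, median and highest level of 30.7, 89.5 and 5731 CPM in Smyd3-ASO mice and 62.1, 379.6 and 679 CPM in control-ASO mice. Its level was 7.16, 7.46, 8.43 and 15.5 CPM in P133 mice and 119.8, 16.4, 259, 25.5 and 3002 CPM in untreated mice. Smyd3-ASO mice 3 and 4 again lay above every control-ASO mouse, whereas mice 1 and 2, at 89.2 and 89.8 CPM, lay above control-ASO mouse 3, at 62.1 CPM, and below the other 5. Every P133 mouse was below every mouse of the other groups for Mt2. P133 mice did not overlap with Smyd3-ASO, control-ASO and untreated mice in 19.3%, 21.3% and 27.1% of all genes. The ratio of Mt2 to Mt1 counts was 1.17 in each of Smyd3-ASO mice 3 and 4 and 0.217 to 0.896 in the other 19 mice.

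**Figure D2:**
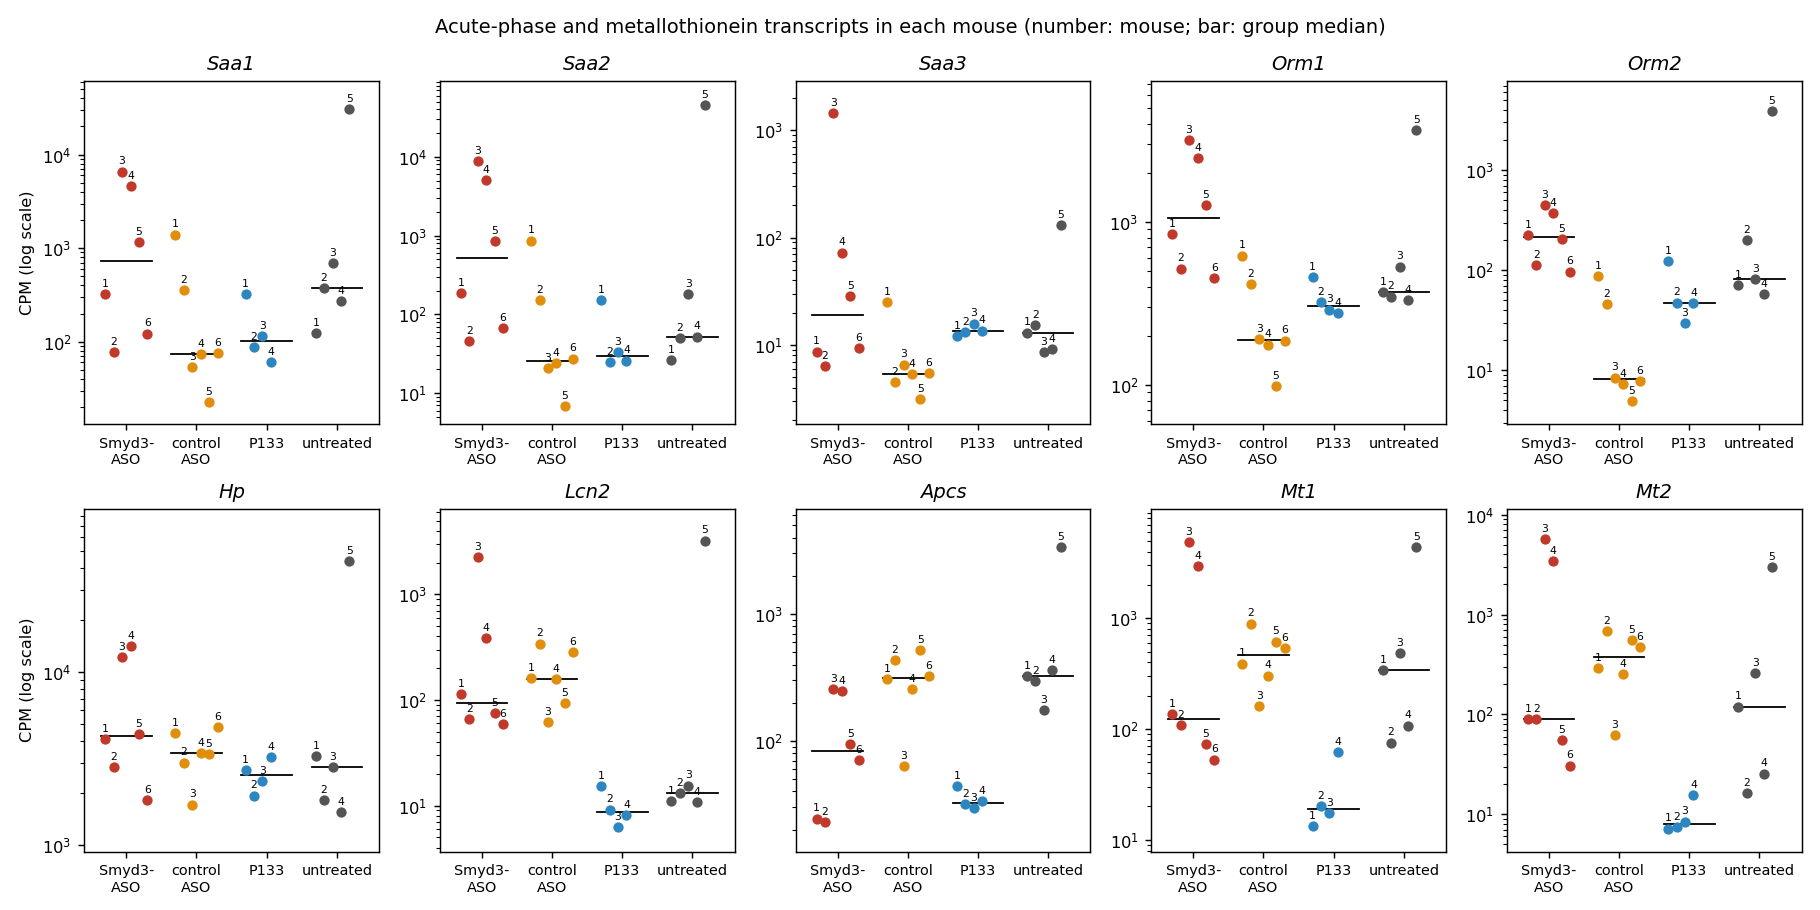
Level of each of the 10 genes in every mouse, as CPM on a log axis, with 1 point per mouse and a line at the group median, for Smyd3-ASO, control-ASO, P133 and untreated mice from left to right. Untreated mouse 5 lies far above untreated mice 1 to 4 in every panel, and Smyd3-ASO mice 3 and 4 are the 2 highest of their group in every panel.

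The size of the gap differed between genes. Untreated mouse 5 lay above the mean of untreated mice 1 to 4 by 594 times for Saa2, 257 times for Lcn2 and 83.5 times for Saa1. It lay above them by 38.0 times for Orm2, 28.6 times for Mt2, 18.6 times for Hp, 17.5 times for Mt1, 11.6 times for Apcs, 11.5 times for Saa3 and 9.27 times for Orm1. Smyd3-ASO mouse 3 lay above the median of Smyd3-ASO mice 1, 2, 5 and 6 by 159 times for Saa3, 79.6 times for Mt2, 69.3 times for Saa2 and 32.2 times for Lcn2. In Smyd3-ASO mouse 4 the factors were 8.04 for Saa3, 47.7 for Mt2, 39.8 for Saa2 and 5.44 for Lcn2. Saa3 and Lcn2 differed most between mice 3 and 4, whereas the metallothioneins, Saa1 and Saa2 were high in both.

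The amyloid A and the metallothionein pairs did not move together in every mouse. Saa1 and Saa2 summed to 2010.2 CPM in Smyd3-ASO mouse 5 and 2263 CPM in control-ASO mouse 1, where Mt1 and Mt2 summed to 128 and 679.6 CPM. In control-ASO mouse 5 the order was the other way, with 29.3 CPM of Saa1 and Saa2 and 1166 CPM of Mt1 and Mt2. In P133 mice Saa1 and Saa2 summed to 86.6 to 472 CPM, while Mt1 and Mt2 summed to 20.4 to 77.3 CPM and lay below all other mice, of which Smyd3-ASO mouse 6 was the lowest at 83.6 CPM.

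**Figure D3:**
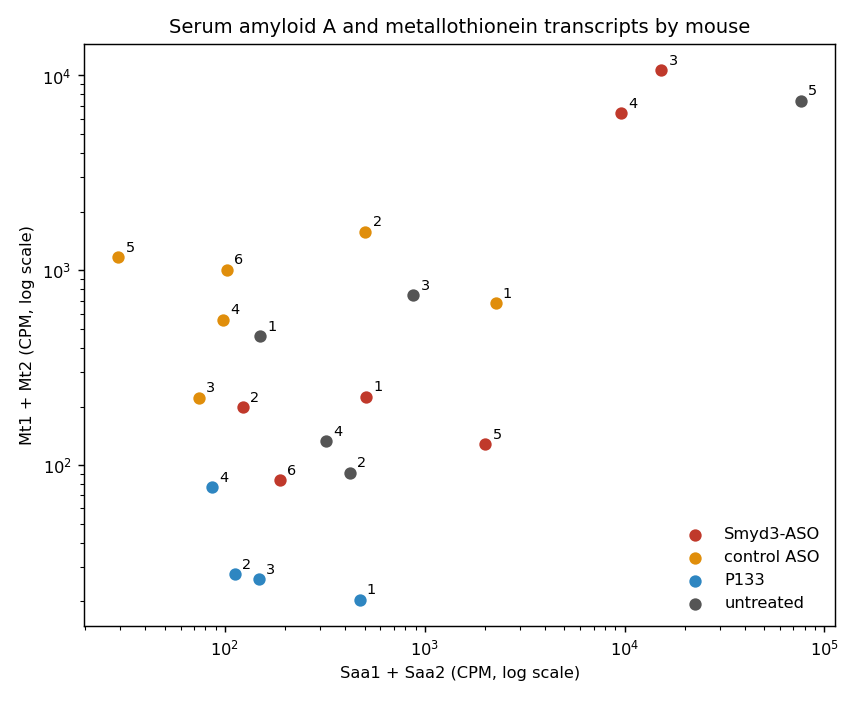
Summed level of Saa1 and Saa2 (horizontal axis) against that of Mt1 and Mt2 (vertical axis) in each of the 21 mice, in CPM on log axes, coloured by group. Untreated mouse 5 and Smyd3-ASO mice 3 and 4 are high on both axes, P133 mice are low for the metallothioneins, and control-ASO mouse 5 has the lowest sum of Saa1 and Saa2 with 1166 CPM of Mt1 and Mt2.

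Smyd3-ASO over control-ASO mice asks what knock-down of Smyd3 did in DEN livers of the same age. Orm1, Orm2 and Saa3 were higher in Smyd3-ASO mice and passed the test, and the other 7 members did not pass it. Orm1 averaged 1454 ± 1119.5 CPM in Smyd3-ASO mice and 281 ± 198 CPM in control-ASO mice (SD, n = 6 each), a log2 change of 2.36 (SE 0.58, edgeR quasi-likelihood adjusted p = 0.0111). Orm2 averaged 244 ± 140.1 CPM in Smyd3-ASO mice and 27.0 ± 33.6 CPM in control-ASO mice, a log2 change of 3.16 (SE 0.79, edgeR adjusted p = 0.0128). Saa3 had a log2 change of 4.94 (SE 1.51, edgeR adjusted p = 0.0317), and without Smyd3-ASO mouse 3 it was 1.58 (edgeR adjusted p = 0.156). Saa3 also missed the threshold when any 1 of control-ASO mice 2 to 6 was left out (edgeR adjusted p = 0.0582 to 0.0627), whereas Orm1 and Orm2 kept their calls without any 1 mouse.

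These 3 of 10 members stand beside 26.1% of all 15297 genes called in this comparison (13.3% higher, 12.9% lower). The median log2 change was 2.19 over the 10 members and 0.01 over all genes. The log2 changes that did not pass were 3.76 for Saa2 (edgeR adjusted p = 0.1), 2.70 for Saa1 (0.147), 2.03 for Mt2 (0.25), 1.49 for Mt1 (0.336), 1.42 for Lcn2 (0.284), 0.92 for Hp (0.16) and -1.42 for Apcs (0.13). Their standard errors reached 1.59 for Saa2 and 1.25 for Mt2.

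**Figure D4:**
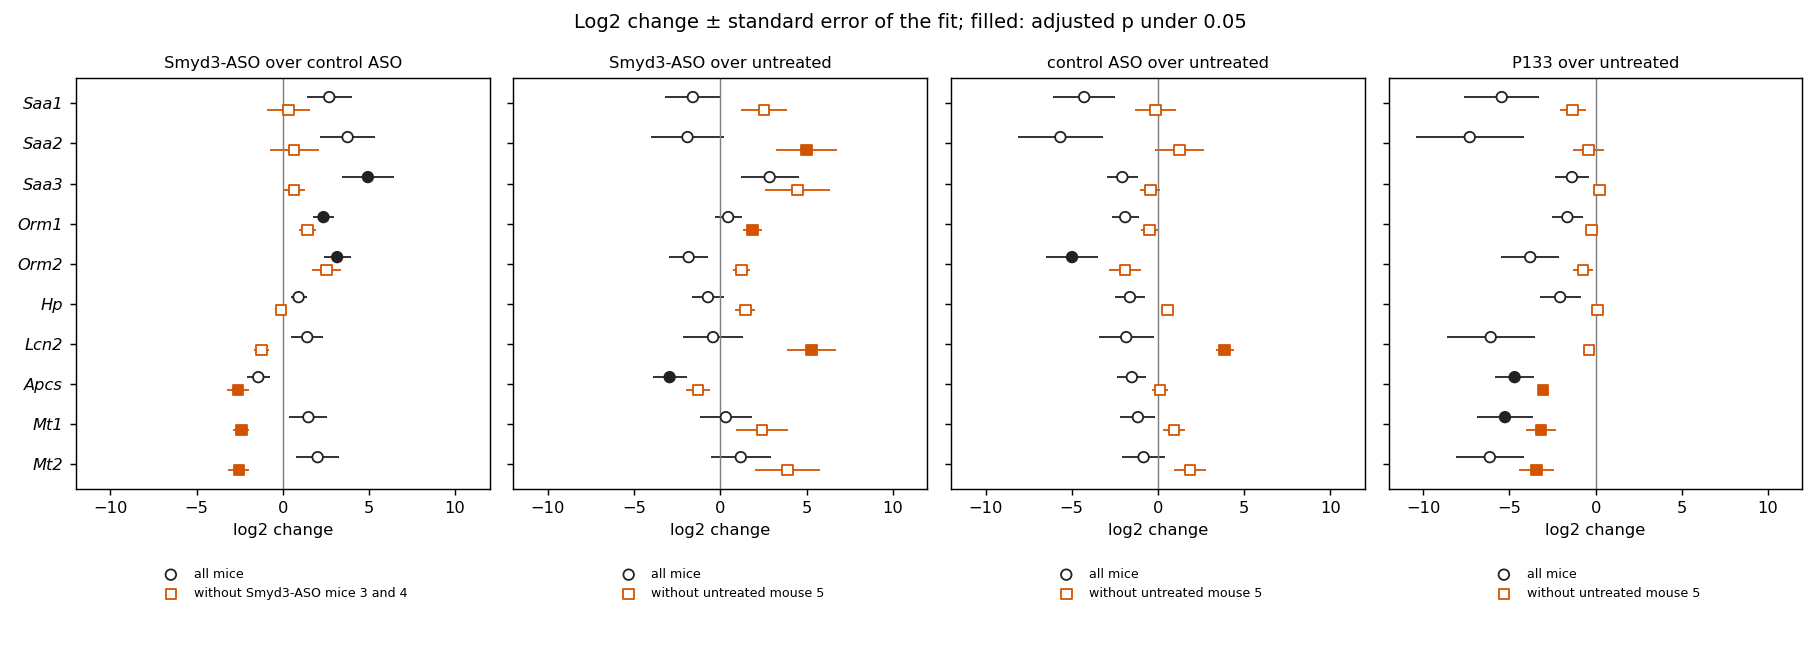
Log2 change of each of the 10 genes with its standard error, in panels for Smyd3-ASO over control ASO and for Smyd3-ASO, control ASO and P133 over untreated. Circles are the fit of all mice, squares the fit without Smyd3-ASO mice 3 and 4 (first panel) or without untreated mouse 5 (other panels), and filled symbols mark an adjusted p under 0.05. In the first panel the 2 fits lie on opposite sides of 0 for Mt1, Mt2, Lcn2 and Hp, and in the panels over untreated mice the bars are wide for Saa1, Saa2 and Lcn2 in the fit of all mice.

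Several of these values rested on Smyd3-ASO mice 3 and 4. With these 2 mice left out, a choice made after seeing the data, the log2 change over control-ASO mice was 1.45 for Orm1 (edgeR adjusted p = 0.0587), 2.55 for Orm2 (0.0621) and 0.65 for Saa3 (0.5), none past the threshold. Mt1, Mt2 and Apcs, not called with all 6 mice, then lay at -2.39, -2.54 and -2.59 (edgeR adjusted p = 0.0053, 0.0161 and 0.017). Because the mice left out were those with the highest levels of these genes, the lower values of the remaining 4 are a description of them. Control-ASO mouse 1 also counted: without it Saa1 and Saa2 passed, at edgeR adjusted p = 0.0405 and 0.0281.

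The next comparisons set the groups against untreated mice, which had neither DEN nor an ASO. The ASO groups differed from them in both agents, and P133 mice in DEN and age. The 3 comparisons share the untreated mice, mouse 5 included. Over untreated mice, Smyd3-ASO mice had 1 member called, Apcs, at a log2 change of -2.94 (SE 0.98, edgeR adjusted p = 0.031), where 47.6% of all genes were called (24.4% higher, 23.2% lower). In control-ASO over untreated mice the called member was Orm2, at a log2 change of -4.98 (SE 1.53, edgeR adjusted p = 0.0244), where 45.9% of genes were called (23.7% higher, 22.2% lower). P133 over untreated mice had 2 members called, Apcs at -4.70 (SE 1.15, edgeR adjusted p = 0.0189) and Mt1 at -5.25 (SE 1.60, edgeR adjusted p = 0.0429), where 31.6% of genes were called (15.1% higher, 16.6% lower). Each of these calls also rested on single mice. Apcs missed the threshold over untreated mice without Smyd3-ASO mouse 1, 2, 5 or 6 (edgeR adjusted p = 0.0541 to 0.0603) and, in P133 mice, without P133 mouse 2, 3 or 4 (0.0532 to 0.0555). Orm2 missed it without control-ASO mouse 6 (edgeR adjusted p = 0.0514), and Mt1 without any 1 P133 mouse or untreated mouse 1 or 3 (edgeR adjusted p = 0.0562 to 0.106). Without control-ASO mouse 1, Saa1 and Saa3 passed in control-ASO over untreated mice, at -5.79 and -2.83 (edgeR adjusted p = 0.0413 and 0.0322). The median log2 change of the 10 members was -0.57 in Smyd3-ASO, -1.87 in control-ASO and -4.98 in P133 over untreated mice, against 0.06, 0.06 and 0.00 over all genes.

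Many of these values differed when untreated mouse 5 was left out. Without it, Lcn2 was higher in Smyd3-ASO mice by a log2 change of 5.28 (SE 1.40, edgeR adjusted p = 0.013) and in control-ASO mice by 3.87 (SE 0.52, edgeR adjusted p = 2.80e-04); with it, the values were -0.42 and -1.84. Without it, Saa2 and Orm1 also passed in Smyd3-ASO over untreated mice, at 5.00 and 1.86 (edgeR adjusted p = 0.0432 and 0.0197), whereas Apcs, at -1.30, did not (edgeR adjusted p = 0.144). With Smyd3-ASO mice 3 and 4 also left out, Lcn2 and Orm1 stayed past the threshold at 2.61 and 0.94 (edgeR adjusted p = 1.20e-05 and 0.0311), Saa2 did not at 1.89, and Apcs passed at -2.47 (0.00572). For Orm2 in control-ASO over untreated mice, the value without mouse 5 was -1.91 and missed the threshold (edgeR adjusted p = 0.122). In P133 over untreated mice Mt2 was at -6.13 with all mice (edgeR adjusted p = 0.05 as rounded, just above 0.05 and not called). Without mouse 5 the changes were smaller and 3 members passed, at -3.05 for Apcs, -3.15 for Mt1 and -3.44 for Mt2 (edgeR adjusted p = 8.99e-07, 0.0344 and 0.0471). Untreated mouse 5 and Smyd3-ASO mice 3 and 4 were picked out by their high levels of these genes. The p-values of the fits without them do not allow for that choice, so these values are a description.

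Against P133 mice, which had DEN but no ASO and were younger, both ASO groups had higher Lcn2 and Mt2. Lcn2 had a log2 change of 5.67 (SE 1.48, edgeR adjusted p = 0.0239) in Smyd3-ASO mice and 4.25 (SE 0.59, edgeR adjusted p = 0.00105) in control-ASO mice. Mt2 had a log2 change of 7.34 (SE 2.13, edgeR adjusted p = 0.0362) in Smyd3-ASO mice and 5.31 (SE 0.73, edgeR adjusted p = 0.00109) in control-ASO mice. The P133 mice serve both comparisons, so the 2 results are not independent.

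In Smyd3-ASO over P133 mice, Orm1 at 2.10 and Orm2 at 1.97 also rose (SE 0.57 and 0.54, edgeR adjusted p = 0.0239 and 0.0253), which made 4 of 10 members called, all higher, where 24.8% of all genes were called (13.1% higher, 11.7% lower). In control-ASO over P133 mice, Apcs at 3.19 and Mt1 at 4.09 rose (SE 0.52 and 0.67, edgeR adjusted p = 0.00225 and 0.00249), which also made 4 of 10 members called, where 27.0% of all genes were called (14.4% higher, 12.6% lower). The median log2 change of the members was 4.05 in Smyd3-ASO over P133 mice and 1.42 in control-ASO over P133 mice, against 0.05 and 0.03 over all genes. Without Smyd3-ASO mice 3 and 4, Lcn2, Mt2 and Orm1 kept their calls over P133 mice, at 3.01, 2.75 and 1.18 (edgeR adjusted p = 1.49e-04, 0.00183 and 0.0227), and Orm2 did not at 1.36 (0.0791). Mice 3 and 4 were picked out by their high levels of these genes, so these values too are a description. The calls in Smyd3-ASO over P133 mice also rested on single mice: leaving out P133 mouse 2, 3 or 4 left 0 members called by edgeR, and leaving out mouse 1 left Orm1 and Orm2. Mt2 also missed the threshold without Smyd3-ASO mouse 3 or 4 alone (edgeR adjusted p = 0.0571 and 0.0621). In control-ASO over P133 mice the 4 calls held without any 1 mouse, and Saa3 passed without control-ASO mouse 1, at -1.45 (edgeR adjusted p = 1.53e-04).

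Other acute-phase proteins followed the same mice. Of 23 measured genes of that list, untreated mouse 5 was the highest of its group in 19, Smyd3-ASO mice 3 and 4 were the 2 highest of theirs in 21, and both orders held in 17, against the 24.7%, 13.7% and 4.65% of all genes above. Their summed level was 42369.7 and 39960.2 CPM in Smyd3-ASO mice 3 and 4, where the group median was 17159 CPM, and 103341 CPM in untreated mouse 5, where the group median was 28717 CPM. In Smyd3-ASO over control-ASO mice, Mbl2 (mannose-binding lectin) rose by a log2 change of 0.54, Steap4 (a metalloreductase) by 3.20 and Hamp (hepcidin, the hormone that limits iron export) by 1.84, and Cp (the copper carrier ceruloplasmin) fell by 1.10 (edgeR adjusted p = 0.0141, 0.0212, 0.0339 and 0.00111). The other 19 did not pass, and the median log2 change of the list was 0.09. These 3 higher and 1 lower of 23 stand beside 13.3% and 12.9% of all genes. Hamp missed the threshold when Smyd3-ASO mouse 2, 3 or 4 or control-ASO mouse 2, 4 or 5 was left out (edgeR adjusted p = 0.0541 to 0.0681). Steap4 was at 1.88 without Smyd3-ASO mouse 3 and still called (edgeR adjusted p = 0.046). Without both mice 3 and 4, Steap4 at 0.76, Hamp at 1.44 and Mbl2 at 0.45 all missed it (edgeR adjusted p = 0.0633, 0.14 and 0.0605).

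Hamp parted the high mice. It was at 28.2 CPM in untreated mouse 5, against 348, 126, 360.4 and 288 CPM in untreated mice 1 to 4, and at 384 and 482 CPM in Smyd3-ASO mice 3 and 4, against 186, 267, 217 and 222 CPM in Smyd3-ASO mice 1, 2, 5 and 6. Hepcidin was thus the lowest of its group in untreated mouse 5 and among the 2 highest of its group in each of Smyd3-ASO mice 3 and 4. Steap4 differed in size, at 1333 and 422 CPM in Smyd3-ASO mice 3 and 4 and 104 CPM in untreated mouse 5, where untreated mice 1 to 4 had 46.2, 45.3, 54.2 and 41.7 CPM.

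The negative acute-phase proteins, plasma proteins whose level falls during the response, were lower in Smyd3-ASO mice in 6 of 7 cases over control-ASO mice. Ahsg (fetuin A) fell by 2.25, Serpina6 (the corticosteroid carrier) by 4.42, Apoa1 (the main apolipoprotein of high-density lipoprotein) by 1.60 and Alb (albumin) by 1.21 on the log2 scale (edgeR adjusted p = 6.09e-05, 1.09e-04, 7.64e-04 and 0.00139). The list had a median log2 change of -1.60, where 12.9% of all genes were called lower. Mice 3 and 4 were the 2 highest of their group in 0 of the 7 genes. Alb was at 22412 and 29299 CPM in them and at 13227, 16186, 23107 and 16578 CPM in Smyd3-ASO mice 1, 2, 5 and 6, against 36512 to 54722 CPM in control-ASO mice. Untreated mouse 5, at 64209 CPM, lay among untreated mice 1 to 4, at 78816, 52151, 35309 and 69549 CPM. Hepatocyte markers were also lower in Smyd3-ASO mice, with 4 of 8 lower (Apoa1, Alb and Ttr, which both lists hold, and Cps1) and Cyp2e1 higher. Cps1 missed the threshold without Smyd3-ASO mouse 1 or 2 or control-ASO mouse 2 (edgeR adjusted p = 0.0533 to 0.0568). The part of these markers in the results was not tested.

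Signalling genes of the response were examined in the same mice. Il6, the cytokine itself, had counts in 3 of 21 mice, Smyd3-ASO mouse 2 and control-ASO mice 2 and 5, at no more than 0.141 CPM, so it was barely detectable at this depth. Of 14 genes of interleukin-6 and STAT3 signalling, Cebpb (C/EBP beta) rose by 2.13 and Socs1 (a feedback inhibitor of JAK kinases) by 3.68 in Smyd3-ASO over control-ASO mice, and Jak1 fell by 0.86 on the log2 scale (edgeR adjusted p = 0.00123, 0.0487 and 0.00575), with a list median of 0.25. These 2 higher and 1 lower of 14 stand beside 13.3% and 12.9% of all genes. Socs1 was at 37.6 CPM in Smyd3-ASO mouse 3 and between 0.443 and 1.90 CPM in the other Smyd3-ASO mice. Without mouse 3 its log2 change was 0.96 and missed the threshold (edgeR adjusted p = 0.221), as it did when any 1 control-ASO mouse was left out (edgeR adjusted p = 0.0736 to 0.089). Stat3 at 0.82, Socs3 (the STAT3-induced feedback inhibitor) at 2.09, Cebpd at 1.42, and the receptor chains Il6ra at 0.22 and Il6st (gp130) at -0.15 did not pass (edgeR adjusted p = 0.058, 0.0944, 0.0613, 0.664 and 0.558).

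Socs3 was at 102 and 23.6 CPM in Smyd3-ASO mice 3 and 4 and at 1.87, 9.21, 9.18 and 5.31 CPM in Smyd3-ASO mice 1, 2, 5 and 6, against 2.77 to 13.5 CPM in control-ASO mice. In untreated mouse 5 it was at 8.02 CPM, and in untreated mice 1 to 4 at 3.22, 5.81, 7.17 and 7.11 CPM. Socs3 therefore stood out in mice 3 and 4 but hardly in untreated mouse 5, whose Saa1 and Saa2 were the highest of all. Stat3 was at 465 and 324 CPM in Smyd3-ASO mice 3 and 4 and 143 CPM in untreated mouse 5, the highest of its group, where untreated mice 1 to 4 had 74.7, 70.1, 102 and 63.3 CPM.

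Of 18 measured genes of interleukin-1, TNF and NF-kappaB signalling, 4 rose in Smyd3-ASO over control-ASO mice and 0 fell, with a list median of 0.30. They were Irak3 at 2.20, Tifa at 3.68, Tnfrsf1b at 0.88 and Myd88 at 1.15 (edgeR adjusted p = 0.0104, 0.0264, 0.0285 and 0.0343), which encode a brake, an adaptor, a TNF receptor and an adaptor of these pathways. These 4 of 18 stand beside the 13.3% of all genes called higher. Tifa was at 647 and 165 CPM in Smyd3-ASO mice 3 and 4 and at no more than 17.0 CPM in the other 4, against 8.92 to 13.7 CPM in control-ASO mice. Single mice decided most of these calls. Tifa missed the threshold without Smyd3-ASO mouse 3, at 1.98, or without control-ASO mouse 4 or 5 (edgeR adjusted p = 0.0742, 0.0529 and 0.0514). Tnfrsf1b missed it without Smyd3-ASO mouse 1 or 3 or control-ASO mouse 3 or 6 (edgeR adjusted p = 0.0526 to 0.0668). Myd88 missed it without Smyd3-ASO mouse 4 or any 1 of control-ASO mice 3 to 6 (edgeR adjusted p = 0.0588 to 0.0722), and was at 0.66, still called, without Smyd3-ASO mouse 3. Irak3 kept its call without any 1 mouse and, at 1.26, without both mice 3 and 4 (edgeR adjusted p = 0.0442). Il1b at 0.62, its receptor Il1r1 at 2.21 and the inhibitor Nfkbia at -0.20 did not pass (edgeR adjusted p = 0.113, 0.066 and 0.705). Il1r1 was at 67.2 and 46.3 CPM in Smyd3-ASO mice 3 and 4 and at 5.60, 2.49, 6.62 and 2.78 CPM in the other 4, against 3.33 to 6.82 CPM in control-ASO mice. Over untreated mice, Smyd3-ASO mice had 10 of the 18 higher and 2 lower, where 24.4% of all genes were higher and 23.2% lower. Control-ASO over untreated mice had 7 higher and 2 lower, where 23.7% of all genes were higher and 22.2% lower, so that the 9 called of 18 are near the 45.9% called of all genes. Over P133 mice the counts were 6 higher and 2 lower in each ASO group, where 13.1% of all genes were higher and 11.7% lower in Smyd3-ASO mice and 14.4% and 12.6% in control-ASO mice.

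Of 7 measured genes of zinc and metal handling, Slc39a4 (a zinc importer) fell by 0.85 on the log2 scale in Smyd3-ASO over control-ASO mice (edgeR adjusted p = 0.0242) and the other 6 did not pass, with a list median of -0.11. Slc39a4 missed the threshold without control-ASO mouse 4 or 6 (edgeR adjusted p = 0.0532 and 0.0588). Mtf1, the zinc-sensing factor, had a log2 change of -0.11, the zinc exporter Slc30a1 of -0.29 and the importer Slc39a14 of 0.40 (edgeR adjusted p = 0.561, 0.25 and 0.559). Slc39a14 was nonetheless at 201 and 122 CPM in Smyd3-ASO mice 3 and 4, above every control-ASO mouse at 38.1 to 70.0 CPM and above the other Smyd3-ASO mice at 19.7 to 57.1 CPM. Of 10 glucocorticoid targets, Nr3c1, the glucocorticoid receptor, fell by 0.89 on the log2 scale (edgeR adjusted p = 2.89e-04) and 9 did not pass, with a list median of 0.16. Beside the calls of both lists, 12.9% of all genes were called lower and 13.3% higher.

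**Figure D5:**
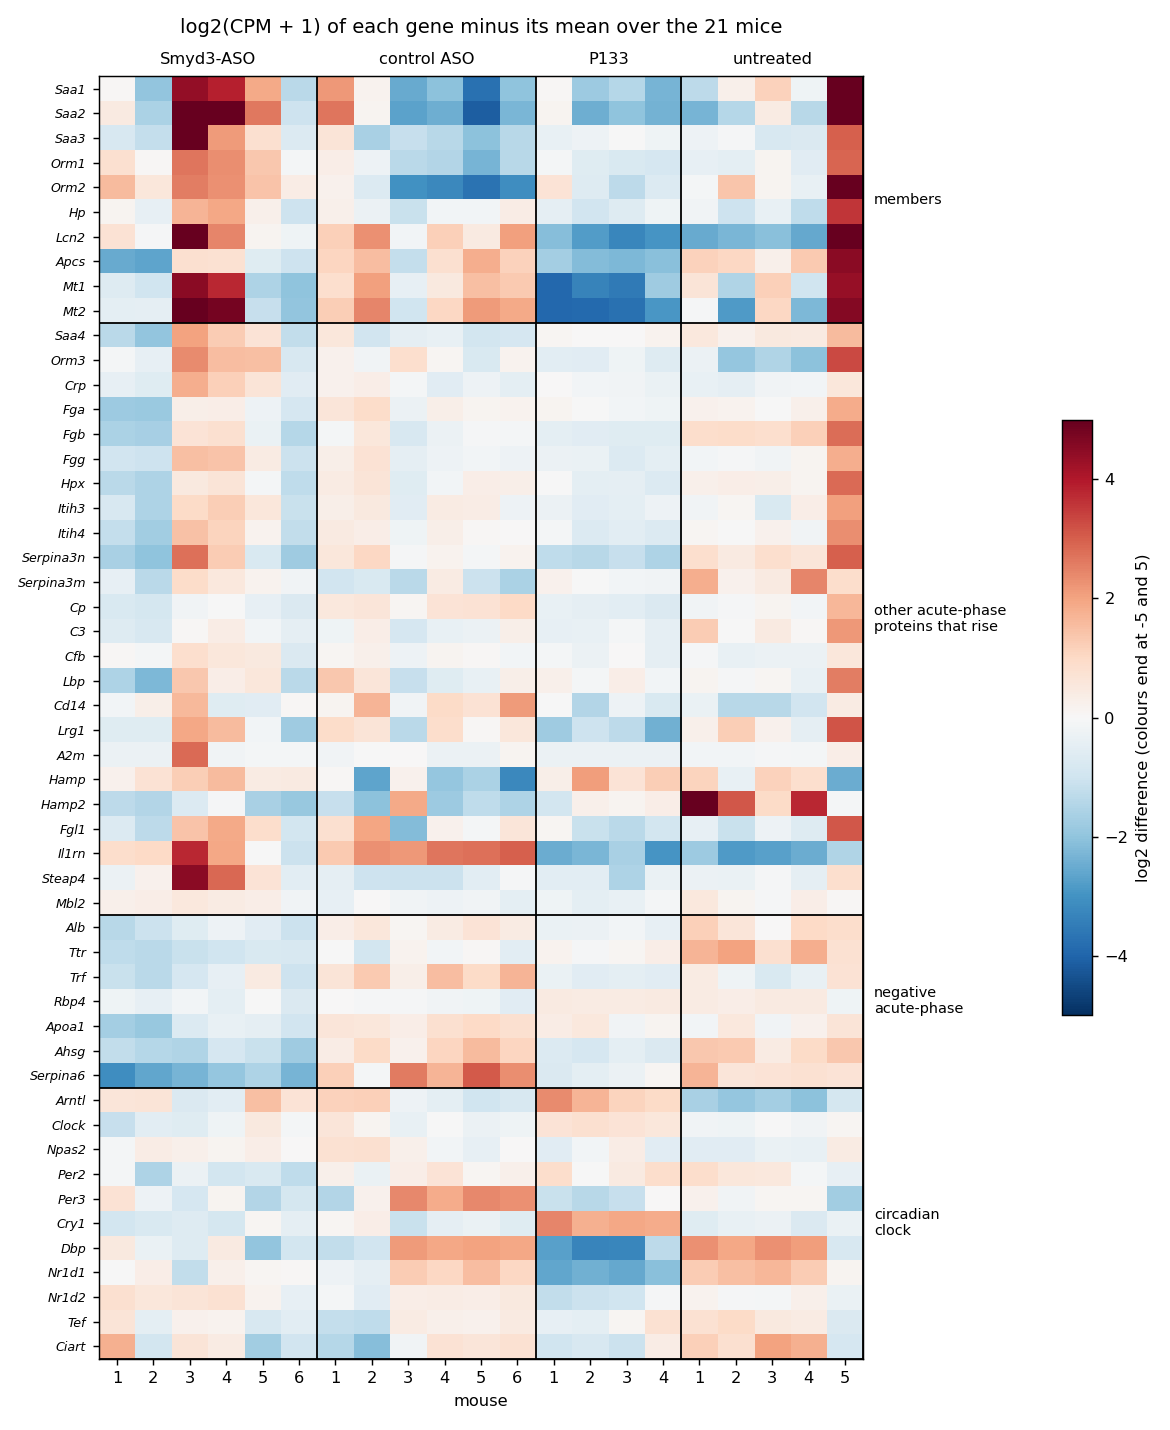
Heat map of log2(CPM + 1) of each gene minus its mean over the 21 mice, red above and blue below it, with the members, other acute-phase proteins that rise, negative acute-phase proteins and circadian clock genes as blocks of rows and the Smyd3-ASO, control-ASO, P133 and untreated mice as columns. Untreated mouse 5 and Smyd3-ASO mice 3 and 4 are red in the members and in most other acute-phase proteins, the negative acute-phase proteins are mostly blue in Smyd3-ASO mice, and Dbp is blue in untreated mouse 5 and control-ASO mice 1 and 2, where the other mice of these groups are red.

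Genes with the profile over the 21 mice most like that of Saa1 were sought among 8702 genes, by the mean absolute difference of centred log2 CPM. They were Tph1 (tryptophan hydroxylase) at 0.931, Saal1 at 1.02, Fgl1 (a liver-secreted fibrinogen-like protein) at 1.42, Il1r1 at 1.43 and Steap4 at 1.44, where the median over all ranked genes was 2.04 and the member Saa2 was at 0.689. Saal1 and Tph1 lie near the Saa genes on the chromosome, and in untreated mouse 5 they were at 16838 and 578 CPM, against 169, 258, 479.8 and 174 CPM and 3.98, 8.89, 22.8 and 2.47 CPM in untreated mice 1 to 4. Whether part of these counts is reads of the Saa genes was not tested.

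For Lcn2 the nearest genes were Btg2 (an antiproliferative early-response gene) at 1.19, Il1rn (the interleukin-1 receptor antagonist) at 1.22, Slc10a2 (a bile acid transporter) at 1.28, and the chemokines Cxcl1 at 1.30 and Cxcl14 at 1.32, with a median of 2.09 and Mt2 at 1.03. Il1rn was at 5.56 to 189 CPM in Smyd3-ASO mice and 33.4 to 109 CPM in control-ASO mice, against 1.47, 1.87, 3.55 and 0.790 CPM in P133 mice and 2.90, 0.948, 1.09, 1.45 and 3.88 CPM in untreated mice. Unlike Lcn2, Il1rn stayed low in untreated mouse 5. For Mt1 they were Serpina3n (a serine protease inhibitor of the acute phase) at 1.19, Lrg1 (a leucine-rich acute-phase glycoprotein) at 1.20, Prelid2 at 1.21, Fgl1 at 1.31 and Cldn14 (a tight-junction protein) at 1.33, with a median of 2.00 and Mt2 at 0.579. These distances describe 21 mice that share a few high ones, with no test.

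Markers of other cells were set beside these results. Neutrophil markers summed to 154 and 82.4 CPM in Smyd3-ASO mice 3 and 4, the 2 highest of their group. Smyd3-ASO mice 1, 2, 5 and 6 were at 62.0, 77.2, 58.7 and 28.1 CPM. The sums were 26.4 to 55.0 CPM in control-ASO mice and 10.3 to 16.6 CPM in P133 mice. Untreated mice had 13.5 to 51.0 CPM, with mouse 5 highest. Of the 6 measured, Csf3r rose by 1.29 in Smyd3-ASO over control-ASO mice (edgeR adjusted p = 0.0116), with a list median of 1.52, where 13.3% of all genes were called higher. The marker S100a8 was at 41.5 and 10.1 CPM in Smyd3-ASO mice 3 and 4 and 2.89 to 9.05 CPM in the others. In untreated mouse 5 it was at 18.2 CPM, against 0.624 to 2.36 CPM in untreated mice 1 to 4. Elane was at 47.0 and 52.9 CPM in Smyd3-ASO mice 3 and 4, within the 14.2 to 58.7 CPM of the others. Smyd3-ASO mice 3 and 4 were the 2 highest of their group in 3 of the 6 measured, and untreated mouse 5 highest in 3. The defining marker Ly6g was at 0 in 17 of 21 mice and at most 0.217 CPM. The part of neutrophils in the Lcn2 result was not tested.

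Macrophage and Kupffer cell markers had 2 of 10 higher in Smyd3-ASO over control-ASO mice, C1qa at 1.82 and Marco at 3.49 (edgeR adjusted p = 3.96e-04 and 0.0258), with a list median of 0.38. For this and the other marker lists, 13.3% of all genes were called higher and 12.9% lower. Marco was at 119 CPM in Smyd3-ASO mouse 4 and at 3.54 to 15.0 CPM in the other 5, against 0.336 to 5.52 CPM in control-ASO mice. Without Smyd3-ASO mouse 4 its log2 change was 1.79, still called (edgeR adjusted p = 0.0493), and without control-ASO mouse 1 it lay just above the threshold. Untreated mouse 5 was highest of its group in 8 of these 10, at a sum of 406 CPM, and Smyd3-ASO mice 3 and 4 were the 2 highest in 0 of 10. Among fat cell markers 2 of 6 rose (Cfd and Cidec; list median 1.19), among bile duct markers 1 of 4 rose (Epcam) and 2 fell (Tspan8 and Spp1; median -0.68), and of the 2 measured T and B cell markers Cd79b rose (median 0.80). Mesothelial (3 genes, median 0.53), fibroblast and stellate (6 genes, median 0.05) and pancreas markers (1 gene, -0.48) had 0 calls by edgeR. The Spp1 call was lost in 7 of the 12 fits that left out 1 mouse (edgeR adjusted p up to 0.101).

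Circadian clock genes marked some of the same mice. Dbp, a clock output gene named after its values were seen, was at 13.0 CPM in untreated mouse 5, against 119, 92.1, 118 and 105 CPM in untreated mice 1 to 4. In the control-ASO group Dbp was at 9.48 and 11.6 CPM in mice 1 and 2, against 107, 93.6, 98.4 and 94.4 CPM in mice 3 to 6. Control-ASO mice 1 and 2 were the 2 highest of their group in Saa1, Saa2, Orm1 and Orm2, and not in Saa3, Hp, Lcn2, Apcs, Mt1 and Mt2. This pair was picked by its Dbp levels, and its share over all genes was not counted, so the order is a description. Over the 11 clock genes, untreated mouse 5 was lowest of its group in 7 and highest in 3, against 24.1% and 24.7% of all genes. Smyd3-ASO mice 3 and 4, at 14.7 and 32.5 CPM, lay within the range of Smyd3-ASO mice 1, 2, 5 and 6, at 33.4, 18.3, 5.31 and 11.9 CPM. In Smyd3-ASO over control-ASO mice 2 of 11 clock genes passed, Per2 and Per3, both lower, with a list median of -0.31. Over all genes 13.3% were called higher and 12.9% lower. Per3 missed the threshold in 7 of the 12 fits that left out 1 mouse, those without Smyd3-ASO mouse 2, 3, 5 or 6 or control-ASO mouse 3, 5 or 6 (edgeR adjusted p = 0.0506 to 0.0626). The labels give no hour of harvest, and the part of the clock in the acute-phase levels was not tested.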

How the data were processed

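Liver RNA of 21 mice was sequenced from the 3′ end as 35 libraries. HISAT2 2.1.0, mm10 and DESeq (version not given) are named, per the submitters' processing notes; the read counter is not given in the sources used here. The authors deposited raw counts per gene, in which the libraries of each mouse with more than 1 were already merged into 1 column. Smyd3-ASO mouse 6 had 1 library, and the other ASO mice had 2 or 3. The 21 columns matched the labels (0 columns were left unmapped), and all 55413 gene IDs matched the GENCODE annotation of mm10. Groups came from the sample titles, and the labels describe the replicates as biological.

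The 6 comparisons were each fitted to the mice of the 2 groups concerned. The test was edgeR's robust quasi-likelihood test (version 4.0.16, R 4.3.3) after TMM scaling and a filterByExpr filter over the 4 groups that kept 15297 genes. P-values were two-sided and adjusted by Benjamini-Hochberg over those genes, with a threshold of 0.05. CPM were scaled over all 21 mice. Total counts ran from 4556484 to 20258619 per mouse. Members and gene lists were chosen with earlier results of these data known. Named genes were the 10 members, 13 regulators, up to 4 called genes of each of 16 other lists by smallest adjusted p in Smyd3-ASO over control-ASO mice, and the 5 genes closest to Saa1, Lcn2 and Mt1 among genes whose mean log2 CPM was 2 or more. Dbp, S100a8, Elane, Ly6g, Il1rn, Tifa, Marco and, beyond its test, Slc39a14 were described per mouse after their values were seen. So were the called genes named beside counts of 5 or fewer. Alternatives were DESeq2 1.42.0, limma-voom 3.58.1, size factors, library totals, no filter, all mice in 1 fit, a replicate block and leaving out each mouse. Fits without Smyd3-ASO mice 3 and 4, and also without untreated mouse 5, were added after seeing the data. The test was also checked on simulated data. Counts there were drawn separately for each gene, with no mouse in which many genes rose together. That check therefore does not cover the single high mice described here. Promoters came from RefSeq (GRCm38.p6).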

Additional observations from a re-analysis of the deposited data

Results flagged for a closer look

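Dixon's criterion was applied to the highest and lowest mouse of each group for each of the 10 genes, which made 40 tests, and it marked 18 of them. Chance marks about 1 in 20 such groups only where levels follow a normal distribution. The criterion was applied to CPM without logs, in genes with a few very high mice, so that rate does not hold here. The genes of 1 mouse are not independent, and the genes were chosen with earlier results known. The number marked is therefore a description. In each case a single mouse lay far above the rest of its group.

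Untreated mouse 5 was marked for all 10 genes. Its levels were 30551 CPM for Saa1, 45918 CPM for Saa2, 131 CPM for Saa3, 3669 CPM for Orm1 and 3895 CPM for Orm2. For the other genes it had 43957 CPM for Hp, 3235 CPM for Lcn2, 3371 CPM for Apcs, 4411 CPM for Mt1 and 3002 CPM for Mt2.

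Smyd3-ASO mouse 3 was marked for Saa3 at 1433 CPM and for Lcn2 at 2269 CPM. In the other genes Smyd3-ASO mice 3 and 4 lay closer together relative to the range of their group. Neither was marked there, because the criterion measures the gap to the nearest mouse. Control-ASO mouse 1 was marked for Saa1 at 1397 CPM, Saa2 at 866 CPM and Saa3 at 25.0 CPM. P133 mouse 1 was marked for Saa2 at 149.9 CPM, and P133 mouse 4 for Mt1 at 61.8 CPM and Mt2 at 15.5 CPM.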

How the results depend on the processing

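With DESeq2's size factors in edgeR, the 60 member results kept their sign and side of the threshold, and the called genes numbered 4016 over control-ASO mice, 7297, 6982 and 4861 in Smyd3-ASO, control-ASO and P133 over untreated mice, and 3798 and 4147 in Smyd3-ASO and control-ASO over P133 mice, against 4000, 7288, 7018, 4839, 3794 and 4131. The replicate numbers do not pair the mice (correlations of same-numbered mice ran from -0.12 to 0.112), and a replicate block gave 1 called member in Smyd3-ASO over control-ASO mice (Lcn2 -0.18, Mt1 -1.20 and Mt2 -1.34 on the log2 scale), 0 in Smyd3-ASO over untreated mice (Saa1 0.72, Saa2 2.58, Orm2 0.70, Hp 0.76, Lcn2 3.39), 0 in control-ASO over untreated mice (Lcn2 2.78, Mt1 0.11, Mt2 1.04), 1 in P133 over untreated mice (Saa3 0.27, Hp 0.15), 1 in Smyd3-ASO over P133 mice, and 2530 called genes in control-ASO over P133 mice, against 4131.

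Without Smyd3-ASO mice 3 and 4 the sign turned over control-ASO mice for Hp (-0.086), Lcn2 (-1.24), Mt1 (-2.39) and Mt2 (-2.54), over untreated mice for Saa3 (-1.44), Orm1 (-0.47), Mt1 (-3.58) and Mt2 (-3.40), and over P133 mice for Saa3 (-0.051). Without untreated mouse 5 as well, Smyd3-ASO over untreated mice had 3 called members, with Saa1 at 0.18, Saa2 1.89, Orm2 0.62, Hp 0.44, Lcn2 2.61, Mt1 -1.47 and Mt2 -0.69. With limma-voom the sign turned for Mt1 (-0.51) and Mt2 (-0.32) over control-ASO mice, for Saa2 (1.14), Orm2 (0.087), Hp (0.23), Lcn2 (2.16) and Mt1 (-0.33) in Smyd3-ASO over untreated mice, and for Lcn2 (2.01), Mt1 (0.21) and Mt2 (1.17) in control-ASO over untreated mice.

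Library totals moved the median of all genes by 0.90, 0.85 and 0.59 in Smyd3-ASO, control-ASO and P133 over untreated mice, by 0.29 and 0.25 in Smyd3-ASO and control-ASO over P133 mice, and by 0.03 over control-ASO mice. Calls were then 9522 higher and 893 lower, 10036 and 687 (10723 in all, against 7018), 6471 and 821 (7292, against 4839), 3369 and 736, and 3855 and 985 in the first 5 of these, with 0 called members, Hp at 0.16 and Lcn2 at 0.40 in Smyd3-ASO over untreated mice and Mt2 at 0.12 in control-ASO over untreated mice. Called members were 0, 0, 1 and 9 with DESeq2 in Smyd3-ASO, control-ASO and P133 over untreated and Smyd3-ASO over P133 mice, where it gave no adjusted p for 5, 9, 9 and 1 members. DESeq2 also gave no adjusted p for Saa3 in Smyd3-ASO over control-ASO mice, at a log2 change of 4.97, and in control-ASO over P133 mice, at -0.70. With no filter the called members were 0, 1 and 0 in Smyd3-ASO and P133 over untreated and Smyd3-ASO over P133 mice, and with all mice in 1 fit 4 and 6 in control-ASO and P133 over untreated mice and 2 in control-ASO over P133 mice.

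Leaving out 1 mouse gave 2 to 5 called members over control-ASO mice (5 without control-ASO mouse 1), with Lcn2 at -0.40 to 1.69. In Smyd3-ASO over untreated mice it gave 0 to 3 (0 without Smyd3-ASO mouse 1, 2, 5 or 6, 3 without untreated mouse 5), with Saa1 at -2.36 to 2.53, Saa2 -2.92 to 5.00, Saa3 -0.51 to 4.48, Orm2 -2.14 to 1.23, Hp -1.10 to 1.45, Lcn2 -2.26 to 5.28 and Mt1 -0.73 to 2.42. In control-ASO over untreated mice it gave 0 to 3 (0 without control-ASO mouse 6, 3 without mouse 1), with Saa2 at -7.65 to 1.25, Hp -1.91 to 0.55, Lcn2 -2.16 to 3.87, Apcs -1.78 to 0.13, Mt1 -1.47 to 0.94 and Mt2 -1.15 to 1.87. In P133 over untreated mice it gave 0 to 3 (0 without P133 mouse 2, 3 or 4, 1 without P133 mouse 1 or untreated mouse 1 or 3), with Saa3 at -1.62 to 0.24 and Hp -2.34 to 0.11. In Smyd3-ASO over P133 mice it gave 0 to 7 members (7 without Smyd3-ASO mouse 6) and 2519 to 4282 genes (2519 without P133 mouse 2). In control-ASO over P133 mice Saa1 ran from -0.33 to 1.92 and Saa2 from -0.33 to 2.72. The causes of these shifts were not tested.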

Other observations

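Relb, a subunit of NF-kappaB, varied widely between mice, and its highest levels lay in other mice than those of the members. Within the untreated group, mouse 5 was the highest for Relb as for the members. Relb was picked out after its values were seen. Its level was 72.0, 19.6, 22.8, 15.5, 197 and 12.1 CPM in Smyd3-ASO mice 1 to 6 and 25.5, 244, 37.0, 23.0, 2905 and 23.9 CPM in control-ASO mice 1 to 6. P133 mice 1 to 4 had 21.05, 1172, 10859.5 and 12.5 CPM and untreated mice 1 to 5 had 60.2, 52.7, 32.9, 49.1 and 173 CPM. P133 mouse 3, control-ASO mouse 5 and P133 mouse 2 were the 3 highest, and Saa1, at 114, 22.4 and 87.7 CPM in those mice, was not high in them. Hamp2, the hepcidin paralogue, was at 14.3 CPM in untreated mouse 5, against 756, 142, 30.9 and 226 CPM in untreated mice 1 to 4, the lowest of its group as Hamp was.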
